A study of Mus musculus with 6 samples.

Results

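The genes described here are 9 genes for membrane and cytoskeletal proteins, Tmeff1, Slc4a11, Jcad, Emp1, Rai14, Eps8, Efna5, Fam129b and Cpd, in T helper 9 (Th9) cultures with and without Cul5. They were chosen on their higher level without Cul5 in these same samples, so their differences between genotypes describe the choice and were not tested as findings. All 9 were among the 12925 genes with enough counts to be tested in the whole comparison. Tmeff1 had the largest ratio between genotypes, 2.89, at 19.1 ± 1.63 CPM, which are counts scaled to a common depth, in WT and 55.3 ± 9.70 CPM without Cul5 (SD, n = 3 each), and Cpd had the smallest, 1.29, at 387 ± 28.5 and 501 ± 21.1 CPM (SD, n = 3 each). Their families and binding partners were listed with earlier results of these data known. Of the 101 listed genes tested, edgeR called 2 higher and 1 lower at an adjusted p under 0.05, which 1.03% of all genes passed. Over 18 other settings the number called ran from 0 to 32, the highest at an unadjusted p under 0.05.

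Cul5 is the scaffold of a cullin-RING ubiquitin ligase that uses SOCS-box proteins, among them brakes on cytokine receptors, to choose its substrates. Several of the 9 genes are best known outside T cells. Tomoregulins, ephrins and tetraspan proteins act at the cell surface, whereas Eps8, Rai14, Jcad and Fam129b are linked to actin or to the plasma membrane at cell contacts. In T cells the actin cortex shapes the contact with the antigen-presenting cell and drives migration, and surface molecules are remodelled after activation.

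The samples were naive CD4+ T cells from the spleens of C57BL/6 mice aged 8 to 10 weeks, 3 WT and 3 Cul5fl/fl CD4-Cre (Cul5 cKO). The study's general methods name lymph nodes as well as spleen as the source of such cells. In both genotypes the cells were activated for 48 h with anti-CD3 (2 µg/ml) plus anti-CD28 (1 µg/ml) under Th9 conditions, which were IL-4 (20 ng/ml), TGF-β (2.5 ng/ml) and an antibody to IFN-γ (10 µg/ml). The promoter of CD4-Cre is active from the thymus onward, so CD8+ T cells of these mice also lose Cul5 exons 9 to 11. The labels call the controls WT, and the study's methods give its controls as Cul5fl/fl littermates that lack CD4-Cre, so that both genotypes carry the floxed allele. The labels number the replicates but do not say that they came from separate animals, so p-values measure the spread between these samples, which may be technical. The study's figure legend gives them as n = 3 per genotype in a single experiment, without naming animals. Since the RNA is from whole cultures, fewer cells of a type and less RNA per cell cannot be told apart.

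Depth was 3944803 estimated counts in WT replicate 3 and between 23111689 and 23454552 in the other 5 samples. Cul5, the deleted gene, was at 66.2 ± 2.67 CPM in the 3 WT and 12.6 ± 1.82 CPM in the 3 Cul5 cKO samples (mean ± SD), and the log2 ratio of the genotypes was -2.39 with an SE of 0.115 (adjusted p = 0.000992 by the quasi-likelihood test of edgeR, adjusted over all genes by Benjamini-Hochberg). Every Cul5 cKO sample lay below every WT sample. Markers of CD4 T cells summed to 2153 to 2308 CPM in WT and 1986 to 2111 CPM in Cul5 cKO samples, so the sums did not overlap. Of the 10, Cd28 alone was called, and it was lower (log2 fold change -1.17, adjusted p = 0.0205 by edgeR). In Cd28, Cd3d, Cd3e, Cd3g, Lck and Cd247 every Cul5 cKO sample lay below every WT sample, whereas Cd4, Cd2, Cd5 and Trac overlapped. The share of all genes with that order was not counted. Col3a1, Lum, Pdgfra and Ccl19 of the fibroblast list and Cdh5, Kdr, Emcn and Cldn5 of the endothelial list had at most 3 counts over all 6 samples. Others of these lists were detected, among them Fn1, Pecam1 and Egfl7, as was Cdh1 of the epithelial list.

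Over all genes tested, 133 were called at an adjusted p under 0.05, which is 1.03%, with 79 higher (0.611%) and 54 lower (0.418%) in Cul5 cKO cells, and the median log2 fold change was -0.01. In 1811 genes (14.0%) every Cul5 cKO sample lay above every WT sample. Among the 9 genes, 3 were called, Tmeff1, Slc4a11 and Fam129b, all higher, and in 8 every Cul5 cKO sample lay above every WT sample, the exception being Efna5. Their median log2 fold change was 0.83. Because the same contrast chose the genes, nothing is read from these counts. The number called was 6 without WT replicate 1 and 0 without WT replicate 2, without WT replicate 3 or without Cul5 cKO replicate 3, while all 9 were called in replicates 2 and 3 alone. It was 8 by DESeq2, 1 by limma on the authors' log2 CPM and 0 by limma on TPM. Over all genes, 693 were called by DESeq2, 41 by limma on the authors' log2 CPM, and 17 and 1 by limma on TPM at pseudocounts of 1 and 0.1. More of all genes were called in replicates 2 and 3 alone than by DESeq2. With 1 sample left out, calls over all genes were fewest without WT replicate 2 or WT replicate 3 and most without WT replicate 1.

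**Figure D1:**
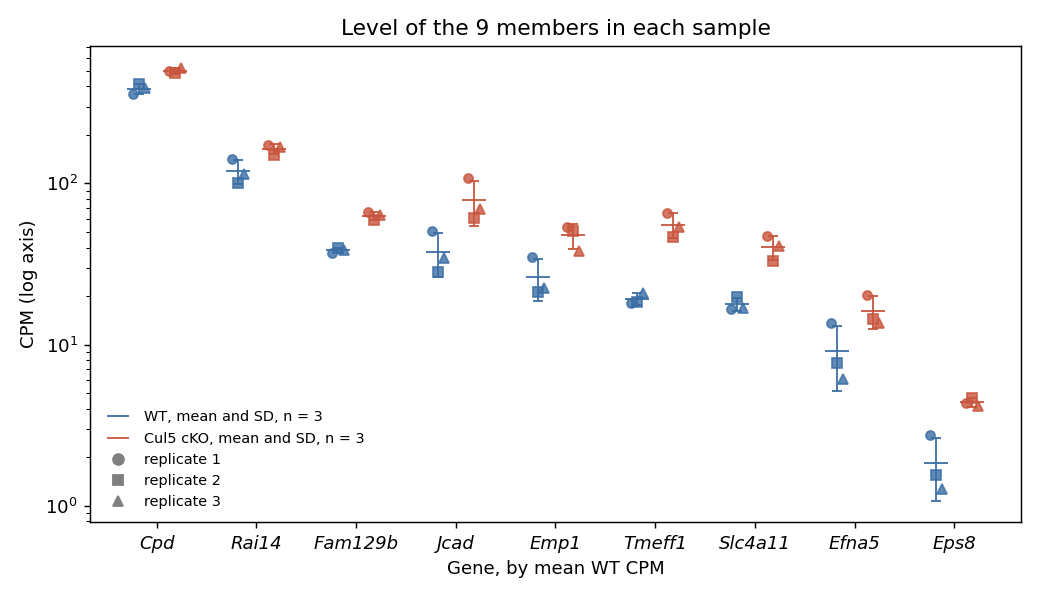
Level of each of the 9 genes in each sample, in CPM on a log axis, with WT in blue, Cul5 cKO in red, a symbol for each replicate number, and bars for the mean and SD of 3 samples. The genes span from Eps8, at 1.27 to 4.65 CPM, to Cpd, at 356.9 to 523.2 CPM, and the genotypes overlap only in Efna5.

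Tmeff1 encodes tomoregulin-1, a transmembrane protein with follistatin domains and an EGF-like domain that binds the Nodal co-receptor Cripto and restrains Nodal signalling. It was at 18.1, 18.3 and 21.0 CPM in WT replicates 1 to 3 and at 65.8, 46.6 and 53.6 CPM in Cul5 cKO replicates 1 to 3. The WT samples lay close together and the lowest Cul5 cKO sample was above all of them. The log2 fold change was 1.55 (SE 0.140), and the level in Cul5 cKO cells was 2.89 times that in WT. The counts behind these levels ran from 83 in the shallow WT replicate 3 to 1515 in Cul5 cKO replicate 1. Tmeff1 lies on chromosome 4 of GRCm38 from 48585174 to 48663131 on the forward strand. Of its 4 transcripts, Tmeff1-201, which spans the whole gene, held 78.2% of the counts and between 75.1% and 82.0% in each sample, and Tmeff1-203 held 21.1%.

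The promoter of Tmeff1 is shown because the gene had the largest fold change of the 9 and because the promoter is dense in CG pairs, which stand in capitals. It runs from 250 bases before to 50 bases after the start of Tmeff1-201, at chr4:48584924-48585223 on the forward strand of GRCm38.p6, as RefSeq gives it. GC content was 76.0%, against a median of 52.7% over all 32851 promoters of the table, and it held 45 CG pairs, against a median of 7.
Tmeff1: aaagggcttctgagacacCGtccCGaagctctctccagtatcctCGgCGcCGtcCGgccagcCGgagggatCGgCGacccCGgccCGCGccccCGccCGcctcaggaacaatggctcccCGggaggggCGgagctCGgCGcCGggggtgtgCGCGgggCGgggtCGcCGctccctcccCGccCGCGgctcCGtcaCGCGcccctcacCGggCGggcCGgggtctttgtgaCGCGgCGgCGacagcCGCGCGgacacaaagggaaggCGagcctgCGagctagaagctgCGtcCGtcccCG

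Emp1 encodes epithelial membrane protein 1, a small tetraspan protein related to PMP22 that is found in many tissues at cell contacts. It was at 35.1, 21.3 and 22.5 CPM in WT replicates 1 to 3 and at 53.9, 50.8 and 38.3 CPM in Cul5 cKO replicates 1 to 3. WT replicate 1 was the highest WT sample and came close to the lowest Cul5 cKO sample, replicate 3, without reaching it. The genotypes differed by 0.83 on the log2 scale (SE 0.214). Emp1 lies on chromosome 6 of GRCm38 from 135362545 to 135383173 on the forward strand. Emp1-201 held 92.1% of its counts, and Emp1-203, a transcript annotated for nonsense-mediated decay from the same start, held 3.84% overall but 25.8% in WT replicate 3, where the gene had 89 counts.

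The promoter of Emp1 is shown because, of the 8 RefSeq promoters found for 6 of the 9 genes, it was the one with matches to motifs of factors downstream of cytokine and T cell receptors. It lies at chr6:135362681-135362980 on the forward strand of GRCm38.p6, and transcripts that start there held 95.9% of the counts of Emp1. Capitals mark the matches. They are TGAGTCA at 145 and TGATTCA at 25 bases before the start, which match the AP-1 motif TGANTCA, and TTCTTTGAA at 120 and TTCATAGAA at 22 bases before it, which match the STAT family motif TTCNNNGAA. The match TGATTCA overlaps TTCATAGAA.
Emp1: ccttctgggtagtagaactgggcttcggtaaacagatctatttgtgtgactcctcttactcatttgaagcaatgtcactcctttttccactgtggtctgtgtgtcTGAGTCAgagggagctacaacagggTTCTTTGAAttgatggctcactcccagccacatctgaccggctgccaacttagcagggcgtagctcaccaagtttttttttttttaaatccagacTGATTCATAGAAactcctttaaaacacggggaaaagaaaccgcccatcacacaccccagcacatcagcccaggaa

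The motifs were searched on both strands. TTCNNNGAA was found in 8.30% of all promoters, TGANTCA in 7.81%, and both together in 0.718%. The STAT6 motif, a TTC and a GAA with 4 bases between, was in 6.95% of all promoters and in none of these 8. The hypoxia response core ACGTG was in 19.6% of all promoters and in none of the 8. The TEAD motif GGAATG, in 14.7% of all promoters, was found once, 122 bases before the start of Rai14-207, a transcript that held 4.91% of the counts of Rai14. These matches describe letters in a window and are no evidence of binding. Some of the 8 windows serve transcripts with few counts. Transcripts that start at the other Emp1 promoter held 0% of the counts of Emp1. Those at the other Rai14 promoter held 0.195% of the counts of Rai14. Rai14-202, which held 93.7% of the counts of Rai14, starts outside the windows of that gene, so its start was not searched.

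Efna5 encodes ephrin-A5, a ligand held in the membrane by a lipid anchor that binds EphA receptors on neighbouring cells. Its levels were 13.6, 7.66 and 6.07 CPM in WT replicates 1 to 3 and 20.4, 14.5 and 13.6 CPM in Cul5 cKO replicates 1 to 3. WT replicate 1, at 13.58 CPM, was level with Cul5 cKO replicate 3, at 13.56 CPM, so the genotypes overlapped. The log2 fold change of 0.76 (SE 0.293) became 1.19 without WT replicate 1. Efna5 lies on chromosome 17 from 62604184 to 62881317 on the reverse strand. Its long transcript Efna5-201 held 96.6% of the counts. The short Efna5-202 had 1.74, 5.11 and 0 estimated counts in WT replicates 1 to 3 and 14.9, 13.9 and 18.8 in Cul5 cKO replicates 1 to 3. In TPM, which divides counts by transcript length before scaling to a common total, Efna5 did not overlap between genotypes, with 2.05 to 5.02 TPM in WT and 6.81 to 9.13 TPM in Cul5 cKO samples.

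Slc4a11 encodes a membrane transporter of the bicarbonate and borate transporter family that is best known from the corneal endothelium. It was at 16.7, 19.8 and 17.0 CPM in WT replicates 1 to 3 and at 46.9, 33.1 and 40.9 CPM in Cul5 cKO replicates 1 to 3. The genotypes lay far apart, with the lowest Cul5 cKO sample, replicate 2, well above the highest WT sample, also replicate 2. This was a log2 fold change of 1.17 (SE 0.145). The gene spans 130684113 to 130697519 on the reverse strand of chromosome 2, and Slc4a11-201 held 89.1% of its counts. Slc4a11-205 and Slc4a11-203, both annotated as retaining an intron, held 5.69% and 4.15%.

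Cpd encodes carboxypeptidase D, a membrane enzyme of the trans-Golgi that removes basic residues left at the ends of proteins after proprotein convertases such as furin have cut them. It was the most abundant of the 9 genes, at 356.9, 413.5 and 391.0 CPM in WT replicates 1 to 3 and at 497.6, 481.4 and 523.2 CPM in Cul5 cKO replicates 1 to 3. All Cul5 cKO samples lay above all WT samples, and the log2 fold change was 0.37 (SE 0.0717). Cpd lies on chromosome 11 from 76778424 to 76847018 on the reverse strand. Nearly all its counts, 99.97%, came from Cpd-201.

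Eps8 encodes an actin regulator that caps filament ends and, bound to Abi1 and Sos1, activates Rac. It was the least abundant of the 9, at 2.73, 1.56 and 1.27 CPM in WT replicates 1 to 3 and at 4.34, 4.65 and 4.13 CPM in Cul5 cKO replicates 1 to 3. The Cul5 cKO samples lay close together, and each was above each WT sample. Its log2 fold change of 1.15 (SE 0.297) became 1.58 without WT replicate 1. WT replicate 3 rests on 5 counts, for which the 95% exact Poisson interval of 1.62 to 11.7 counts covers counting error only, against 64 and 36 in the other WT samples and 93 to 106 in Cul5 cKO samples. Eps8 lies on chromosome 6 from 137477245 to 137654876 on the reverse strand, on the same chromosome as Emp1. Its counts were split between Eps8-202 (48.2%), Eps8-201 (27.9%) and Eps8-203 (20.7%), and the share of Eps8-202 was 0 in the shallow WT replicate 3 and reached 70.3% in Cul5 cKO replicate 1, so the transcript behind the higher level could not be told at this depth.

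Rai14 encodes ankycorbin, an ankyrin repeat and coiled-coil protein that binds actin filaments. It was at 140.7, 101.0 and 115.1 CPM in WT replicates 1 to 3 and at 174.0, 150.4 and 167.2 CPM in Cul5 cKO replicates 1 to 3. The genotypes did not overlap, although WT replicate 1 came close to Cul5 cKO replicate 2. Its log2 fold change, 0.46 (SE 0.126), was among the smaller of the 9. The gene spans 10568969 to 10714624 on the reverse strand of chromosome 15, and Rai14-202 held 93.7% of its counts. Of the 4710 stretches of 50 bases in that transcript, the length of a read, 42 (0.892%) also occur in the predicted gene Gm10389, and the main transcripts of the other 8 genes share none with another gene.

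Fam129b encodes a member of the Niban family with a lipid-binding domain that is found at the plasma membrane of cells in contact. Its levels were 37.0, 39.6 and 38.5 CPM in WT replicates 1 to 3 and 66.3, 59.3 and 63.9 CPM in Cul5 cKO replicates 1 to 3. Within each genotype its samples lay within a few CPM of each other. The fitted log2 fold change was 0.72 (SE 0.0714), and the highest WT sample was well under the lowest Cul5 cKO sample. Fam129b lies on chromosome 2 from 32876114 to 32925254 on the forward strand. Its end overlaps that of Lrsam1 on the opposite strand, and whether reads were counted by strand is not given in the sources used here. Lrsam1 was at 11.2 ± 1.86 CPM in the 3 WT and 11.7 ± 4.24 CPM in the 3 Cul5 cKO samples (mean ± SD). Fam129b-201 held 99.7% of the counts of Fam129b.

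Jcad encodes a protein of endothelial cell junctions that binds the Hippo pathway kinase Lats2. It was at 50.4, 28.0 and 34.4 CPM in WT replicates 1 to 3 and at 107.4, 61.2 and 69.5 CPM in Cul5 cKO replicates 1 to 3. Replicate 1 was highest in both genotypes, and every Cul5 cKO sample was above every WT sample. On the log2 scale the fitted difference was 1.07 (SE 0.274). Jcad lies on chromosome 18 from 4634878 to 4682869 on the forward strand, and Jcad-201 held 96.9% of its counts. Summed endothelial markers ran from 26.1 to 38.2 CPM in WT and from 21.8 to 33.2 CPM in Cul5 cKO samples, most of it Pecam1, which leukocytes also express. Egfl7 was at 6.01 ± 1.27 CPM in the 3 WT and 6.82 ± 0.555 CPM in the 3 Cul5 cKO samples (mean ± SD), and Vwf at 0.401 ± 0.357 and 1.02 ± 1.03 CPM. Cdh5, Kdr, Emcn and Cldn5 were at or near 0, and Tek and Plvap were under 1 CPM in every sample. Whether endothelial cells had a part in the level of Jcad was not tested.

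Between the genes, levels can be compared only per length. In mean WT TPM the order was Cpd (68.2 ± 7.22), Rai14 (39.6 ± 4.82), Fam129b (16.6 ± 2.14), Tmeff1 (15.7 ± 3.41), Emp1 (14.5 ± 4.28), Slc4a11 (8.79 ± 1.52), Jcad (7.84 ± 2.38), Efna5 (3.52 ± 1.49) and Eps8 (0.794 ± 0.219), each with its SD and n = 3. Fam129b, Tmeff1 and Emp1 overlapped with their neighbours in this order, as did Slc4a11 and Jcad, so their ranks do not differ beyond the spread between samples. In mean Cul5 cKO TPM, Tmeff1 (40.2 ± 8.56) and Emp1 (27.7 ± 6.65) stood ahead of Fam129b (24.7 ± 1.29), with n = 3 each, and Rai14, Tmeff1 and Emp1 each overlapped with the next, as did Slc4a11 with Jcad. The ends of the order, with Cpd (88.7 ± 3.70) and Rai14 (50.5 ± 3.59) at the top and Efna5 (7.63 ± 1.30) and Eps8 (1.79 ± 0.274) at the bottom, were as in WT. Among genes with a count ranked by mean TPM, Tmeff1 stood at 6915 in WT and 3821 in Cul5 cKO cells, and Eps8 at 12308 and 10796.

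Within a genotype the 9 genes did not vary alike. The coefficient of variation over the WT samples was 43.5% for Efna5, 41.9% for Eps8, 30.7% for Jcad and 28.9% for Emp1, against 3.41% for Fam129b, 7.37% for Cpd, 8.55% for Tmeff1 and 9.66% for Slc4a11. In 5 genes, Jcad, Emp1, Rai14, Eps8 and Efna5, WT replicate 1 was the highest WT sample, by 0.26 to 0.66 above the WT mean on the log2 CPM scale. In 7 genes, all but Eps8 and Cpd, Cul5 cKO replicate 1 was the highest Cul5 cKO sample. Neither the labels nor the study's methods name a batch that sets replicate 1 apart, and the study's figure legend gives a single experiment. Divided by the WT sample of the same number, Cul5 cKO levels of Jcad were 2.13, 2.19 and 2.02 times as high in replicates 1 to 3, whereas those of Eps8 were 1.59, 2.98 and 3.27 times as high. These ratios set samples side by side by number only, as the numbers are not known to pair them.

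**Figure D2:**
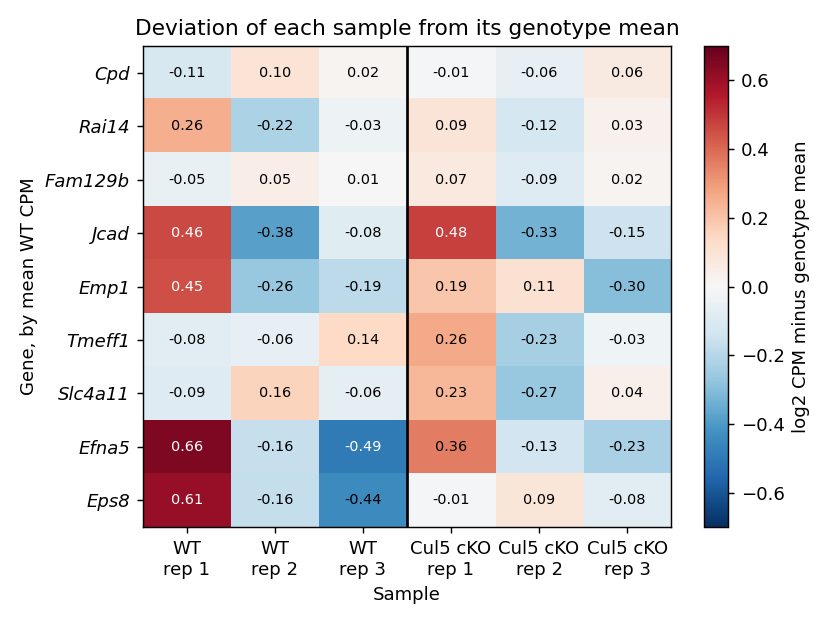
Deviation of each sample from the mean of its genotype, in log2 CPM, for the 9 genes in rows and the 6 samples in columns, with red above and blue below the mean. WT replicate 1 is red for Rai14, Jcad, Emp1, Efna5 and Eps8, and Fam129b and Cpd deviate least, by -0.11 to 0.10.

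The other members of the 9 genes' families and pathways, 138 genes in 9 lists of which 101 were tested, show the levels of related genes. The lists were chosen with earlier results of these data known, so counts of genes in them are a description. The 101 genes were read against the share called over all genes, 1.03%, and the median log2 fold change over all genes, -0.01. In these lists, the most abundant gene means the one with the highest mean CPM, which is not divided by transcript length. At an unadjusted p under 0.05, the share over all genes was 21.3%, with 10.9% higher and 10.4% lower, and the counts at that threshold below stand beside these shares. By edgeR, Zyx and Capg were called higher and Fam129a lower, and in 24 of the 101 genes every Cul5 cKO sample lay above every WT sample, against 14.0% of all genes, and 14 of the 24 were among the 39 genes of the actin list. The number called was 5 without WT replicate 1, 1 without Cul5 cKO replicate 1 and 0 without any one of the other 4 samples. It was 9 by DESeq2, which called 693 of all genes.

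Niban proteins went in different directions. Fam129a, the founding Niban gene, which is induced by stress, was at 61.5, 78.3 and 75.7 CPM in WT replicates 1 to 3 and at 43.5, 42.6 and 49.3 CPM in Cul5 cKO replicates 1 to 3. All Cul5 cKO samples were below all WT samples, opposite to Fam129b. Fitted by edgeR, it fell by 0.67 on the log2 scale (SE 0.110), with an adjusted p of 0.0445, and the change stayed below 0 in all 17 alternative fits but missed the threshold in 9 of them, with an adjusted p of up to 0.372 by limma on log2(TPM + 0.1). Fam129c, the last of the family, was at 2.40 ± 0.351 CPM in the 3 WT and 1.89 ± 0.181 CPM in the 3 Cul5 cKO samples (mean ± SD) and was not called.

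In the actin list, which stands beside Rai14, 39 genes were tested, and edgeR called 2 higher and none lower, with 13 higher and 1 lower at an unadjusted p under 0.05 and a median log2 fold change of 0.09. Zyx encodes zyxin, a protein of focal adhesions and stress fibres, and was at 222.1, 266.4 and 252.8 CPM in WT replicates 1 to 3 and at 360.6, 357.1 and 357.6 CPM in Cul5 cKO replicates 1 to 3. It rose by 0.54 on the log2 scale (SE 0.0763) with an adjusted p of 0.0276 by edgeR, but the change was -0.44 in the authors' own gene-level table of log2 CPM, and the call was lost in 9 of 17 alternatives. Capg encodes a protein that caps actin filaments, as Eps8 does, and was at 490.5, 489.3 and 459.5 CPM in WT replicates 1 to 3 and at 617.6, 665.2 and 640.6 CPM in Cul5 cKO replicates 1 to 3. No Cul5 cKO sample of either gene fell to the WT range. Capg rose by 0.42 on the log2 scale (SE 0.0578) with an adjusted p of 0.0249 by edgeR, and the change lay between 0.37 and 0.46 over the 17 alternatives, in 8 of which the call was lost. The 1 gene lower at an unadjusted p under 0.05, Evl, a relative of the filament elongation factor Vasp, was at 71.3 ± 15.8 CPM in the 3 WT and 35.8 ± 5.19 CPM in the 3 Cul5 cKO samples (mean ± SD, adjusted p = 0.0547 by edgeR and 4.447e-06 by DESeq2). DESeq2 called 6 genes of the list, Evl lower and Zyx, Capg, Actg1, Arpc1b and Tagln2 higher, and all but Zyx and Capg were picked out after their values were seen. Actb, β-actin and the most abundant gene of the list, was at 7322 ± 395 CPM in the 3 WT and 7785 ± 288 CPM in the 3 Cul5 cKO samples (mean ± SD).

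**Figure D3:**
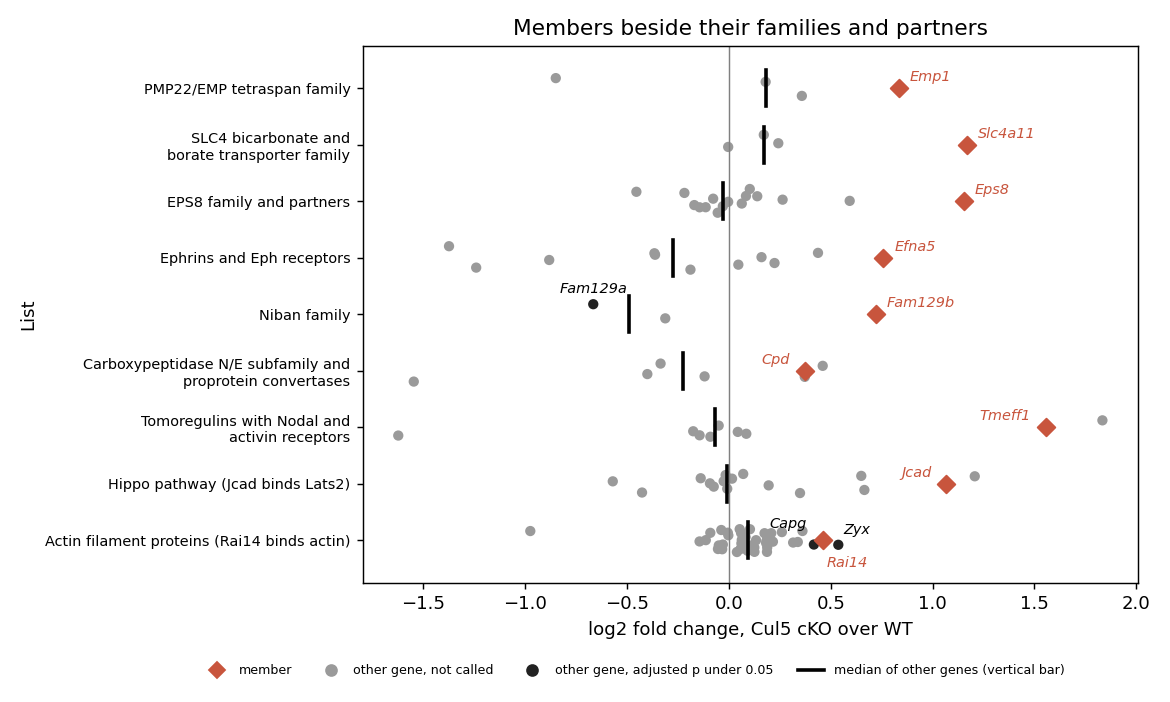
Log2 fold change of Cul5 cKO over WT for each tested gene of the 9 lists of families and partners, with the 9 chosen genes as red diamonds, genes called by edgeR in black, other genes in grey, and a vertical bar at the median of the genes other than the chosen ones. The medians of these other genes lie between -0.49 for the Niban family and 0.18 for the PMP22/EMP family.

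The remaining 7 lists had no gene called by edgeR. By DESeq2 the EPS8 and the Hippo list had 1 called gene each, Abi3 (adjusted p = 0.0332) and Nf2 (adjusted p = 0.004), and the other 5 lists had 0. The genes named below for an unadjusted p under 0.05 were picked out after their values were seen, and their adjusted p by edgeR missed the threshold. In the EPS8 list, 15 genes were tested, 1 was higher and 2 lower at an unadjusted p under 0.05, and the median log2 fold change was -0.03. The higher was Baiap2, which links Rac to actin, at a log2 fold change of 0.26 (adjusted p = 0.200 by edgeR). The lower were Abi1, through which Eps8 joins Sos1, at -0.22 (adjusted p = 0.112 by edgeR), and its relative Abi3 at -0.45 (adjusted p = 0.106 by edgeR). Rac2, the Rac GTPase of blood cells and the most abundant gene of the list, was at 782 ± 52.3 CPM in the 3 WT and 708 ± 6.76 CPM in the 3 Cul5 cKO samples (mean ± SD, adjusted p = 0.245 by edgeR). Of 10 ephrins and Eph receptors tested beside Efna5, none was higher and 3 were lower at an unadjusted p under 0.05, with a median of -0.28. Ephb6, an Eph receptor without kinase activity, was the most abundant at 12.6 ± 1.01 CPM in the 3 WT and 9.67 ± 0.806 CPM in the 3 Cul5 cKO samples (mean ± SD, adjusted p = 0.168 by edgeR). The other lower genes were ephrins of the B class. Efnb3 had a log2 fold change of -0.88 (adjusted p = 0.200 by edgeR, and 0.355 by DESeq2). Efnb2, at 0.555, 0.562 and 1.01 CPM in WT replicates 1 to 3 and 0.261 to 0.267 CPM in Cul5 cKO samples, passed the expression filter of 0.434 CPM in 3 samples only through the WT samples, where it was higher, so its count among the lower genes is no support. The EphA receptors tested, Epha1, Epha2 and Epha5, were each under 1 CPM on average in both genotypes.

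Among relatives of Cpd, 6 carboxypeptidases and convertases were tested, with 2 higher and 2 lower at an unadjusted p under 0.05 and a median log2 fold change of -0.23, which was above 0 in 3 of 17 alternatives. Furin, the convertase that acts ahead of carboxypeptidase D, was at 170.4, 282.1 and 251.3 CPM in WT replicates 1 to 3 and at 300.2, 327.0 and 339.8 CPM in Cul5 cKO replicates 1 to 3. The Cul5 cKO samples were all higher, but WT replicate 1 stood apart, and the log2 fold change of 0.46 (SE 0.171) had an adjusted p of 0.189 by edgeR. Pcsk4, a convertase of germ cells, was also higher, at 19.7 ± 1.68 CPM in the 3 WT and 25.7 ± 0.374 CPM in the 3 Cul5 cKO samples (mean ± SD, adjusted p = 0.103 by edgeR). The lower genes were Cpm, a carboxypeptidase anchored in the plasma membrane, at a log2 fold change of -0.34 (adjusted p = 0.162 by edgeR), and Cpe, at -1.55 (adjusted p = 0.213 by edgeR), whose genotypes overlapped.

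Of 3 other tetraspan genes tested beside Emp1, 1 was higher at an unadjusted p under 0.05, and the median was 0.18. That gene, Emp3, the most abundant of them, was at 76.7 ± 3.36 CPM in the 3 WT and 87.2 ± 3.52 CPM in the 3 Cul5 cKO samples (mean ± SD, adjusted p = 0.186 by edgeR). Of 3 other SLC4 transporters tested beside Slc4a11, 1 was higher at an unadjusted p under 0.05, and the median was 0.17, which was below 0 in 4 of 17 alternatives. That gene, Slc4a7, a sodium bicarbonate cotransporter and the most abundant, was at 214 ± 3.66 CPM in the 3 WT and 241 ± 3.74 CPM in the 3 Cul5 cKO samples (mean ± SD, adjusted p = 0.142 by edgeR).

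Beside Tmeff1, 8 genes for a tomoregulin and for Nodal and activin signalling were tested, with 1 higher and 1 lower at an unadjusted p under 0.05 and a median of -0.07. Smad2, the shared signal transducer and the most abundant, was at 67.7 ± 5.31 CPM in the 3 WT and 63.3 ± 5.37 CPM in the 3 Cul5 cKO samples (mean ± SD, adjusted p = 0.607 by edgeR). The higher gene, Tmeff2, the other tomoregulin, was at 0.512, 0.346 and 0.253 CPM in WT replicates 1 to 3 and at 2.04, 1.05 and 1.29 CPM in Cul5 cKO replicates 1 to 3, with no overlap. It passed the expression filter, which asks for 0.434 CPM in 3 samples, through the Cul5 cKO samples and WT replicate 1, and WT replicate 3 was under the floor of 3 counts (0.760 CPM), so no fold change or test is given for it. The lower gene, Tdgf1, which encodes the co-receptor Cripto that Tmeff1 binds, was at 1.51 ± 0.483 CPM in the 3 WT and 0.453 ± 0.172 CPM in the 3 Cul5 cKO samples (mean ± SD), and it passed the filter through the WT samples and a single Cul5 cKO sample, so its test is not given either.

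Beside Jcad, 15 genes of the Hippo pathway were tested, with 2 higher and 1 lower at an unadjusted p under 0.05 and a median of -0.01. Stk4, the kinase Mst1 and the most abundant, was at 257 ± 14.0 CPM in the 3 WT and 241 ± 8.29 CPM in the 3 Cul5 cKO samples (mean ± SD, adjusted p = 0.451 by edgeR). The higher genes were Nf2, which encodes merlin, an upstream regulator of the pathway, at 138 ± 3.74 CPM in the 3 WT and 176 ± 10.9 CPM in the 3 Cul5 cKO samples (mean ± SD, adjusted p = 0.0687 by edgeR), and Ctgf, a target of the pathway's factors Yap and Tead, at 1.78 ± 0.651 and 4.23 ± 2.17 CPM (adjusted p = 0.184 by edgeR). The lower was Lats2 itself, at a log2 fold change of -0.43 (adjusted p = 0.215 by edgeR), with overlapping genotypes.

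Among all genes but the 9, at a mean of at least 1 CPM, those most like the mean pattern of the 9 over the 6 samples were found. The measure was the root mean square difference of log2 CPM, each gene centred on its own mean. The mean pattern was -0.23, -0.57 and -0.59 in WT replicates 1 to 3 and 0.65, 0.35 and 0.39 in Cul5 cKO replicates 1 to 3. The nearest were Ubtd1 (0.0825), Tmem163 (0.125), Lair1 (0.128), Csrp2 (0.133) and Dyrk3 (0.138). Ubtd1 was at 13.5, 12.6 and 11.6 CPM in WT replicates 1 to 3 and at 27.1, 23.6 and 24.1 CPM in Cul5 cKO replicates 1 to 3. Lair1, an inhibitory receptor for collagen, was at 51.3, 44.3 and 42.5 CPM in WT replicates 1 to 3 and at 85.4, 80.4 and 95.9 CPM in Cul5 cKO replicates 1 to 3. Of the 9 genes themselves, Emp1 lay closest to their mean pattern at 0.174 and Tmeff1 farthest at 0.345. Closer than these lay 18 and 530 genes, and the 530 include the rest of the 9. The pattern includes the difference that chose the genes, so its likeness to other genes is a description.

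Summed markers of other cell types differed between samples, some of them by genotype. Myeloid markers summed to 6.32 to 10.99 CPM in WT and 5.60 to 59.6 CPM in Cul5 cKO samples, and 39.8 CPM of the highest sum, in Cul5 cKO replicate 2, was Mpo. That sample had the lowest Cul5 cKO level of 6 of the 9 genes, Tmeff1, Slc4a11, Jcad, Rai14, Fam129b and Cpd. B cell markers, mostly Ighm, ran from 84.4 to 116 CPM in WT and were at 43.3, 37.6 and 132 CPM in Cul5 cKO replicates 1 to 3, below every WT sample in replicates 1 and 2. Markers of CD8 T and NK cells summed to 10.97 to 16.8 and 10.7 to 23.03 CPM, dendritic cell markers to 1.75 to 2.25 and 1.82 to 4.78 CPM, and fibroblast markers to 3.04 to 3.89 and 2.13 to 3.344 CPM in WT and Cul5 cKO samples. Erythroid markers were higher in each Cul5 cKO sample, at 1.07 to 2.67 CPM against 0 to 0.897 CPM in WT. Each of these 6 genes was under 1 CPM in every sample, and in WT replicate 3, with a sum of 0, 3 counts equal 0.760 CPM, so these sums are near the floor. Epithelial markers, mostly Cdh1, were lower in each Cul5 cKO sample, at 6.12 to 15.2 CPM against 19.5 to 23.4 CPM in WT. The part of these levels in the values of the 9 genes was not tested.

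Under every processing tried, the log2 fold change of each of the 9 genes was above 0, in 152 of 152 values, which the choice of the genes on this contrast makes no sign of stability. In 143 of these the value moved by less than 1 SD between replicates, and that SD is wide for genes whose samples vary much. Efna5 counted as unmoved in all 17 alternatives, so this count is no measure of stability either. Eps8 ranged most, from 0.64 on log2(TPM + 1), where a pseudocount of 1 exceeds its WT level, to 1.58 without WT replicate 1. Efna5 ranged from 0.56 without Cul5 cKO replicate 1 to 1.20 in the authors' log2 CPM. Cpd, the deepest counted, stayed between 0.32 and 0.43.

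**Figure D4:**
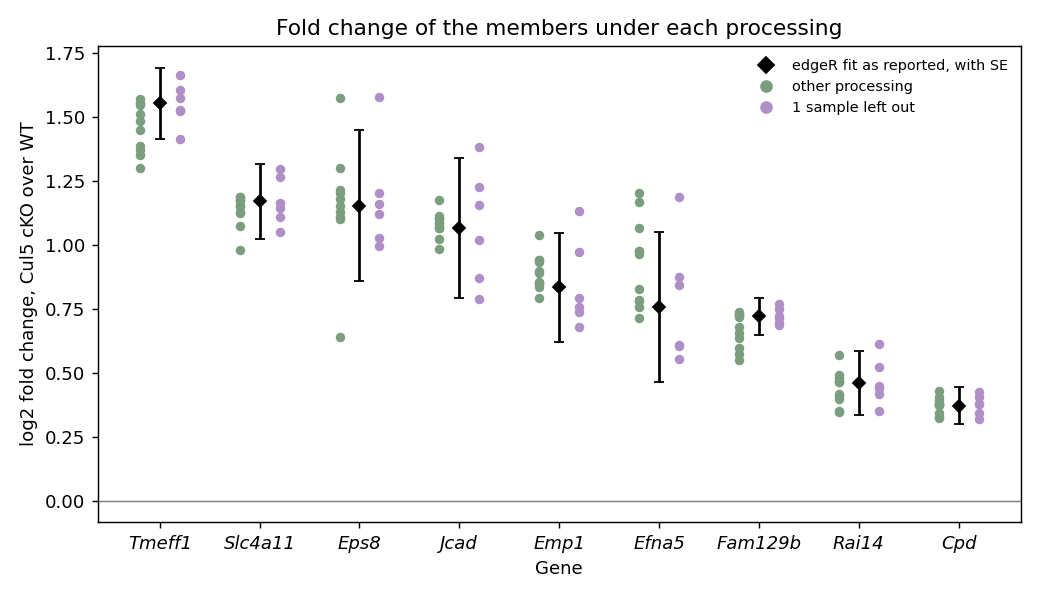
Log2 fold change of Cul5 cKO over WT for the 9 genes, as fitted by edgeR with its SE (black diamonds), under other processing (green) and with 1 sample left out (purple). All points lie above 0, and Eps8 and Efna5 spread over the widest range.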

How the data were processed

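Poly-A RNA of 6 samples was sequenced by the authors in reads of 50 bp and assigned to GRCm38 transcripts with kallisto 0.46.2. The authors deposited, per sample, estimated counts, which are not normalized, and TPM, and for the series a gene-level table of log2 CPM normalized with edgeR 3.34.0, whose fold change and p-value columns were not used. Of 119414 transcripts, 116640 (97.7%) matched GENCODE vM21, and the rest held 0.958% to 1.04% of a sample's counts. Estimated counts were summed by gene and rounded. In R 4.3.3, edgeR 4.0.16 filtered genes by its defaults, normalized by TMM and ran the quasi-likelihood test of 3 WT against 3 Cul5 cKO samples without covariates, with Benjamini-Hochberg adjustment over 12925 genes and calls at an adjusted p under 0.05. CPM uses TMM library sizes, and fold changes are Cul5 cKO over WT. Alternatives used DESeq2 1.42.0 and limma 3.58.1, other filters, scalings and pseudocounts (1 and 0.1 TPM), thinning, and samples left out. Depth was 3944803 to 23454552 counts, so that 3 counts equal 0.128 to 0.760 CPM.

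The 9 genes and all lists were chosen with earlier results of these data known. The text names the 9 genes, Cul5, the called and the most abundant gene of each partner list, and the 5 genes nearest in pattern. Emp2, Fam129c, Epha1, Epha2, Epha5 and the partner genes called by DESeq2 or at an unadjusted p under 0.05 were added after their values were seen. Marker genes are named where a list's sum turns on them, and others of the marker lists were named after their values were seen. Promoters are RefSeq's for GRCm38.p6. Python 3.11.15 with pandas 2.3.3 and matplotlib 3.10.9 was used.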

Additional observations from a re-analysis of the deposited data

How the results depend on the processing

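WT replicate 3 had far fewer counts than the other samples, and with 3 samples per genotype the number of differentially expressed genes depended on the fit. Against 133 genes with edgeR, it was 693 with DESeq2, 228 without a filter on low counts, 60 on counts scaled from TPM, 41 with limma on the authors' log2 CPM, 17 with limma on TPM at a pseudocount of 1 and 1 at a pseudocount of 0.1, 1153 in replicates 2 and 3 alone, 2753 at an unadjusted p under 0.05, and between 2 and 316 with 1 sample left out, lowest without WT replicate 2 or WT replicate 3 and highest without WT replicate 1. Against 3 partner genes called, the number was 9 with DESeq2, 0 on counts scaled from TPM and in all 3 limma fits, 11 in replicates 2 and 3 alone, 32 at an unadjusted p under 0.05, and between 0 and 5 with 1 sample left out. The cause was not tested.

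With the replicate number as a block, 848 genes, 12 partner genes and 8 of the 9 chosen genes were called. Deviations from the genotype means correlated at 0.370 between the samples numbered 1, 0.206 between those numbered 2 and 0.0245 between those numbered 3. Nothing in the labels says that a number marks a shared animal or day, so the numbers are not known to pair the samples. WT replicate 1 correlated best with Cul5 cKO replicate 1. WT replicate 2 correlated about equally with Cul5 cKO replicate 2 (0.206) and Cul5 cKO replicate 3 (0.201), and WT replicate 3 best with Cul5 cKO replicate 2 (0.0914). The deviations of a genotype sum to 0 for each gene, so these correlations depend on each other. Zyx turned from 0.54 to -0.44 in the authors' log2 CPM, for a cause that was not tested. Cul5 stayed between -2.48 and -1.95 and was called in all 17 alternatives, and the median of the 9 genes stayed between 0.74 and 1.13. Eps8, with 5 counts in WT replicate 3, was left out by a minimum of 10 counts in every sample, and its transcripts and level there are limited by depth.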
